A study of Homo sapiens with 12 samples.

Results

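The genes described here were 8 genes grouped under mitochondrial self-removal. Of these, BNIP3, BNIP3L, FUNDC1, BCL2L13, FKBP8 and PHB2 are mitophagy receptors, FUNDC2 is a relative of FUNDC1, and PINK1 is a kinase. The 8 genes were taken by symbol from the 60666 genes listed for each library. All 8 were among the 14274 genes with enough counts to be tested. The count tables came from Huh7 cells, an established human hepatoma line, grown with the HIF prolyl hydroxylase inhibitor Molidustat or with its solvent DMSO. The 4 groups were DMSO alone for 24 h, 25 µM Molidustat for 24 h, DMSO alone for 48 h and 25 µM Molidustat for 48 h, with 3 libraries in each. No group carried a genetic change, and Huh7 is a single cell line, so that spread between libraries is spread between cultures of that line.

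Mitophagy is the delivery of mitochondria to lysosomes by autophagy. In the receptor route, a protein anchored in the mitochondrial membrane binds LC3 or GABARAP, the small proteins on the growing autophagosome, through a short LC3-interacting region. In the other well-known route, the kinase PINK1 builds up on damaged mitochondria and starts their marking with ubiquitin, which is read by adaptors such as OPTN. BNIP3 and BNIP3L are textbook targets of the hypoxia-inducible factors (HIF), which prolyl hydroxylase inhibitors stabilise, whereas FUNDC1 is known to be controlled largely by phosphorylation.

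The libraries were made from the 3′ ends of polyadenylated RNA and held between 1499273 and 9179389 counts on genes. Levels below are in CPM, the counts of a gene scaled to a common library size with edgeR's TMM factors. The second DMSO 48 h library stood apart. It was the shallowest, and 50.4% of its reads fell outside annotated genes, against 17.1% to 25.6% in the other 11 libraries. Several of the 8 genes read low in it, with FUNDC1 at 24.3%, BNIP3L at 37.7% and FKBP8 at 42.5% of the mean of the other two DMSO 48 h libraries. The remaining genes lay between 52% for PHB2 and 87.8% for BCL2L13, and the 48 h values that it moved most are also given without it.

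The first question was which of the 8 genes responded to Molidustat. BNIP3, BNIP3L and FUNDC2 rose, though FUNDC2 passed the test only over the mean of both times. The other 5 genes passed neither at a single time nor over that mean. BNIP3 and BNIP3L passed at 24 h and again at 48 h, with rises between 5.1-fold and 7.02-fold. In these bulk libraries, more cells expressing a gene and more of its RNA per cell cannot be told apart. FUNDC2 rose 2.61-fold as the mean of both times. A gene was called when its Benjamini-Hochberg adjusted p in edgeR's quasi-likelihood test was below 0.05 and its log2 fold change was beyond 1. At 24 h, 2 of the 8 genes were called higher, against 0.231% of all tested genes, and none was called lower, against 0% of all tested genes. At 48 h, 2 of the 8 were called higher, against 0.21% of all tested genes, and none lower, against 0.021%. Over the mean of both times, 3 of the 8 were called higher, against 0.96% of all tested genes, and none lower, against 0.0701%. The fit without the second DMSO 48 h library called more genes in all, 111 higher at 24 h and 48 at 48 h of 15253, in place of 33 and 30 of 14274. Of the 8 genes it called 3 at 24 h, FUNDC2 being the third, and 2 at 48 h. The number of the 8 called was lower in other fits, at 1 at 24 h without the second DMSO 24 h library, 1 at 48 h without any one Molidustat 48 h library and 0 at 48 h with only the libraries of that comparison.

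BNIP3 encodes an outer mitochondrial membrane receptor that binds LC3 and also interacts with BCL2 family proteins. Its gene lies on the minus strand of chromosome 10, at chr10:131967684-131981967 of GRCh38. At 24 h its level was 175.9, 196.1 and 102.9 CPM in the 3 DMSO libraries and 1125, 975.4 and 1232 CPM in the 3 Molidustat libraries. After 48 h its level was 175.3, 153.3 and 206.9 CPM with DMSO and 1126, 1105 and 1203 CPM with Molidustat. No treated library came near an untreated one, and the second DMSO 48 h library was close to its group for this gene. The log2 fold change was 2.81 ± 0.34 (SE; 95% interval 2.09 to 3.53, adjusted p = 0.000977) at 24 h, which is 7.02-fold. After 48 h it was 2.68 ± 0.34 (SE; interval 1.96 to 3.39, adjusted p = 0.00149), which is 6.4-fold. BNIP3 stood at rank 6 of all tested genes by p-value at both times. At 48 h the log2 fold change was 2.66 and the adjusted p 0.0569 when the fit held only the 6 libraries of that comparison.

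The base letters upstream of BNIP3 are shown because the core of the HIF binding motif, written here as ACGTG or GCGTG, was dense there. Promoter windows of RefSeq (GRCh38.p14), from 250 bases before a gene's annotated start to 50 after it, were searched for both words on both strands. The BNIP3 window held 2 matches of ACGTG, which are the same palindromic CACGTG read on either strand, and 4 of GCGTG. All 6 began between 143 and 104 bases before the start. Of 35116 such windows over the genome, 0.923% held 6 or more matches, 21.4% held ACGTG and 36.5% held GCGTG. The window's GC content was 80.7%, against a median of 58.7% over all windows. The stretch from 160 to 81 bases before the start, chr10:131982004-131982083 on the minus strand, reads 5′ to 3′ with the matches in capitals. Where GCGTG lies on the opposite strand it appears as CACGC.
BNIP3 upstream stretch: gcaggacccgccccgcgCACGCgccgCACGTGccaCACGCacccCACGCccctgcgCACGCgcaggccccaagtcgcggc
The FUNDC2 window held 2 matches of GCGTG and none of ACGTG, where 12.7% of windows held 2 or more of GCGTG and 48.4% held at least 1 match of either word. Its stretch from 60 to 31 bases before the RefSeq start, chrX:155026784-155026813 on the plus strand, is given for comparison. The gene span given below comes from another annotation and begins earlier, at 155025980, so the stretch lies within that span. The stretch holds 1 of the 2 matches, which began 45 bases before the start. The other began at position 8, past the start and outside the stretch.
FUNDC2 upstream stretch: gggacgctttctgcgCACGCgcatctcggt
The single FUNDC1 window and both PHB2 windows held no match, and 1 of the 3 BCL2L13 windows held 1. BNIP3L, FKBP8 and PINK1 were not searched. These are matches of letters, not measured binding.

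BNIP3L, also called NIX, encodes the close relative of BNIP3 that is best known for clearing mitochondria from maturing red cells. The gene is at chr8:26383054-26505636 of GRCh38, plus strand. At 24 h it measured 118.7, 60.5 and 99.6 CPM with DMSO and 629.2, 533.6 and 599.7 CPM with Molidustat. At 48 h it measured 169.3, 58.6 and 141.7 CPM with DMSO and 693.4, 592.4 and 614.5 CPM with Molidustat. Treated and untreated libraries were again far apart, while the second library of each DMSO group read lowest. The log2 fold change was 2.66 ± 0.40 (SE; interval 1.81 to 3.50, adjusted p = 0.00528) at 24 h and 2.35 ± 0.39 (SE; interval 1.51 to 3.18, adjusted p = 0.0148) at 48 h. These are 6.31-fold and 5.1-fold. Without the second DMSO 48 h library the 48 h value was 2.01 (adjusted p = 0.00168). The 48 h call was lost when any one of the Molidustat 48 h libraries was left out, at log2 fold changes of 2.26 to 2.38 and adjusted p between 0.0664 and 0.0934. The 48 h call was also lost in the fit of only the 48 h libraries, at 2.34 (adjusted p = 0.212), and the 24 h call without the second DMSO 24 h library, at 2.42 (adjusted p = 0.0732).

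FUNDC2 encodes a mitochondrial outer membrane protein related to the receptor FUNDC1. It is at chrX:155025980-155060304 of GRCh38, plus strand. At 24 h it measured 27.1, 39.3 and 26.6 CPM with DMSO and 72.1, 83.9 and 74.4 CPM with Molidustat. The 48 h libraries gave 24.3, 14.9 and 29.5 CPM with DMSO and 62.5, 55.3 and 75.7 CPM with Molidustat. The groups did not overlap at either time, and the highest DMSO library, at 39.3 CPM, remained below the lowest Molidustat library. FUNDC2 was not called at either time alone. The log2 fold change was 1.31 ± 0.32 (SE, adjusted p = 0.166) after 24 h and 1.46 ± 0.33 (SE, adjusted p = 0.0982) after 48 h. Over the mean of both times it was called, at 1.38 ± 0.23 (SE; interval 0.90 to 1.87, adjusted p = 0.00535). DESeq2 called it at both times (adjusted p = 0.00383 at 24 h and 0.00162 at 48 h). Without the second DMSO 48 h library the 48 h value was 1.25 (adjusted p = 0.114) and the mean over both times was 1.29 (adjusted p = 0.00132).

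FUNDC1, the relative that is the established hypoxia-linked receptor, gave a different picture. The gene is at chrX:44523639-44542859 of GRCh38, minus strand. It measured 37.2, 23.1 and 30.8 CPM with DMSO and 38, 29.5 and 23.7 CPM with Molidustat at 24 h. The 48 h libraries gave 40.8, 9.58 and 38.1 CPM with DMSO and 26.3, 25.3 and 45.9 CPM with Molidustat. The groups overlapped at both times, and the lowest value of all was in the second DMSO 48 h library, on 9 counts. The log2 fold change was -0.01 (interval -0.96 to 0.95) at 24 h and 0.09 (interval -0.87 to 1.04) at 48 h. These intervals include a change of close to 2-fold in either direction at each time. The 48 h value was -0.29 (adjusted p = 0.989) when that library was left out. Along the canonical transcripts, FUNDC2 and FUNDC1 could be aligned over only 6.1% of FUNDC2, at 67.8% identity.

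FKBP8, a tail-anchored outer membrane protein that recruits LC3, was separated from its controls at 48 h only. The gene is at chr19:18531751-18544077 of GRCh38, minus strand. At 24 h it measured 45.5, 70.5 and 40.1 CPM with DMSO and 68.5, 41.5 and 47.9 CPM with Molidustat, which overlap. At 48 h it measured 64.8, 29.8 and 75.3 CPM with DMSO and 106.3, 94.8 and 109.4 CPM with Molidustat, all above the controls. Complete separation of this kind, with every treated library the higher, was found for 9.96% of tested genes at 48 h, for 7.26% at 24 h and for 2.2% at both times, among them BNIP3, BNIP3L and FUNDC2. The FKBP8 log2 fold change at 48 h was 0.84 ± 0.36 (SE; interval 0.08 to 1.61), which was not called (adjusted p = 0.325), against 0.02 (interval -0.75 to 0.78) at 24 h. Without the second DMSO 48 h library the 48 h value was 0.55 (adjusted p = 0.821).

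BCL2L13, PHB2 and PINK1 showed overlapping groups at both times. BCL2L13, an outer membrane receptor with BCL2-type homology regions, is at chr22:17628855-17730855 and lay between 26.6 and 46.5 CPM over the 12 libraries. Its mean was 37.4 ± 1.65 CPM (SD, n = 3) with DMSO and 35.1 ± 7 CPM with Molidustat at 24 h, and 39.5 ± 3.01 and 36 ± 10 CPM at 48 h. Its log2 fold change over both times was -0.11 (interval -0.58 to 0.36). PHB2, a prohibitin of the inner membrane that becomes a receptor once the outer membrane ruptures, is at chr12:6965327-6970780. It ranged from 93.7 CPM in the second DMSO 48 h library to 227.2 CPM in the second Molidustat 24 h library, and its log2 fold change was -0.17 after 24 h and 0.22 after 48 h. The 48 h value was -0.04 without that DMSO library.

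PINK1, at chr1:20633458-20651511, was counted least of the 8 genes, with 1083 counts over all libraries. It measured 18.1, 16.9 and 31 CPM with DMSO and 14, 14.1 and 20.8 CPM with Molidustat at 24 h. At 48 h it measured 24.5, 16 and 15.6 CPM with DMSO and 10.6, 14.6 and 22.4 CPM with Molidustat. The log2 fold change was -0.44 (interval -1.34 to 0.46) at 24 h and -0.25 (interval -1.16 to 0.66) at 48 h, and the groups overlapped.

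**Figure D1:**
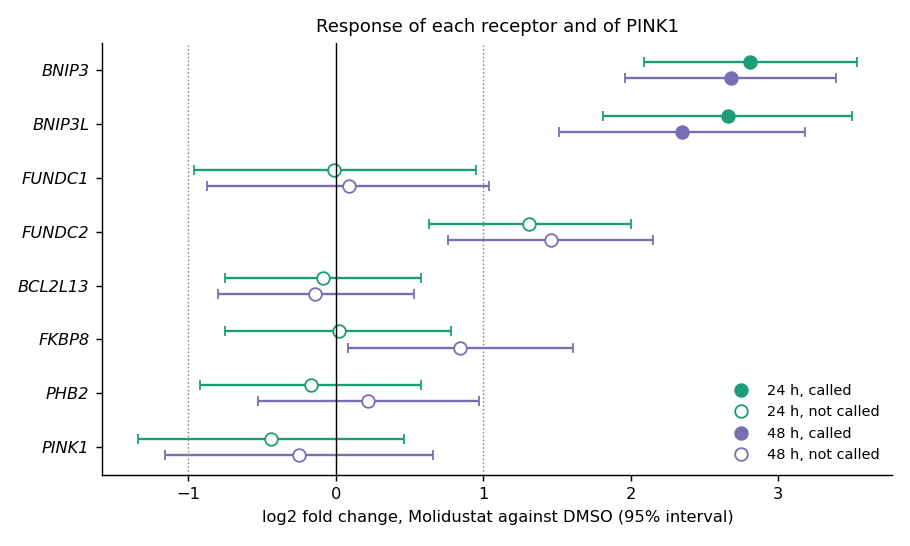
Log2 fold change of Molidustat against DMSO for each gene at 24 h (green) and 48 h (purple), with 95% intervals from the edgeR fit. Filled points passed both thresholds, and dotted lines mark log2 fold changes of -1 and 1. BNIP3 and BNIP3L lie beyond 2 at both times, FUNDC2 lies between 1 and 1.5, and the intervals of FUNDC1, BCL2L13, PHB2 and PINK1 include 0.

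An exact two-sided permutation test, with treatment labels exchanged within each time, was run for each of the 8 genes, without adjustment. The exact p was 0.005 for BNIP3, BNIP3L and FUNDC2, which is the smallest value that its 400 arrangements can give. Any gene with all treated libraries above all controls at both times gets this value, which was so for 2.2% of tested genes. The 8 genes were also chosen with earlier results of these data known. It was 0.12 for FKBP8, 0.2 for PINK1, 0.36 for BCL2L13, 0.75 for FUNDC1 and 0.9 for PHB2.

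The second question was whether the response changed between 24 h and 48 h. No interaction was called for any of the 8 genes, and 0% of all tested genes were called. The effect at 48 h minus that at 24 h was -0.13 (interval -1.09 to 0.82) for BNIP3, -0.31 (interval -1.43 to 0.82) for BNIP3L and 0.14 (interval -0.81 to 1.10) for FUNDC2. For FKBP8 it was 0.83 ± 0.51 (SE; interval -0.26 to 1.91, adjusted p = 0.83). With the second DMSO 48 h library left out it was -0.26 for BNIP3, -0.65 for BNIP3L, -0.08 for FUNDC2 and 0.52 for FKBP8, none of them called. Within DMSO, none of the 8 genes was called between 48 h and 24 h, against 0.00701% of all tested genes. The log2 differences there were 0.18 for BNIP3, 0.42 for BNIP3L, -0.39 for FUNDC2 and 0.15 for FKBP8. They became 0.30 for BNIP3, 0.76 for BNIP3L, -0.17 for FUNDC2 and 0.47 for FKBP8 when that library was left out, again with no call. Within Molidustat, none was called either, against 0%. The log2 difference there was 0.98 ± 0.36 (SE, adjusted p = 1) for FKBP8, 0.04 for BNIP3, 0.11 for BNIP3L and -0.25 for FUNDC2.

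The counts of 2 of the genes share sequence with another gene, and their values carry that limit. BNIP3 has 44 pseudogene copies in the annotation, 30 of them on chromosome 19, and 36 of the 44 had no count in any library. One copy, BNIP3P1 at chr14:28264390-28265974, held 4983 of the 5043 counts on all copies. Its genomic sequence matched the BNIP3 transcript at 97.7% of aligned bases over 99.7% of the transcript, and at 97.7% in the last 300 bases, where 3′ libraries place their reads. BNIP3P1 rose with BNIP3, by 2.67 ± 0.34 (SE, adjusted p = 0.00112) at 24 h and 2.59 ± 0.34 (SE, adjusted p = 0.00209) at 48 h. Its counts were between 10.7% and 16.1% of those of BNIP3 in every library, with group means of 14.5%, 12.9%, 13.7% and 13.4% in DMSO 24 h, Molidustat 24 h, DMSO 48 h and Molidustat 48 h. Whether these reads came from the copy or from BNIP3 was not tested. BNIP3 and BNIP3L could be aligned over 28.8% of the BNIP3 transcript, at 72.3% identity.

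The last 300 exonic bases of PINK1 lie wholly within exons of PINK1-AS on the opposite strand. PINK1-AS carried between 1.98 and 6.87 counts for each count of PINK1, and the strand setting of the counting is not given in the sources used here, so the split between the pair is uncertain. PINK1-AS measured 61.8, 69.3 and 61.4 CPM with DMSO and 48.4, 54.5 and 57.9 CPM with Molidustat at 24 h. The 48 h libraries gave 80.9, 35.1 and 70.4 CPM with DMSO and 72.6, 60.1 and 69.9 CPM with Molidustat. Its log2 fold changes were -0.26 at 24 h and 0.10 at 48 h, and neither was called. For FUNDC2 and PHB2 the listed copies held 1.71% and 0.0381% of the gene's own counts.

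Genes with profiles most like those of BNIP3, BNIP3L and FUNDC2 were sought among the 9098 genes with a mean of at least 10 CPM. The measure was Pearson r of log2 CPM over the 12 libraries, which include both treatments and therefore share the treatment difference. After its copy BNIP3P1 (r = 0.99), BNIP3 was most like TXNIP, SPAG4 and SLC16A3 (r = 0.97 each) and ANKZF1 (r = 0.96). SLC16A3 is the lactate exporter MCT4. BNIP3L was most like FN1 and SPAG4 (r = 0.97 each), followed by LDHA, which makes lactate, and DDIT4, an inhibitor of mTORC1 (r = 0.96 each). FUNDC2 was most like the glycolytic enzyme ENO1 and TRNP1 (r = 0.95 each), then glycogen synthase GYS1, the glycolytic enzyme ALDOA and EDARADD (r = 0.94 each). Without the second DMSO 48 h library these values lay between 0.92 and 0.99, but the order changed. FN1 then ranked 11 and LDHA 19 for BNIP3L, and ENO1 ranked 8 and TRNP1 15 for FUNDC2, while BNIP3P1 stayed at rank 1 for BNIP3. Among the genes described here, r was 0.95 for BNIP3 with BNIP3L, 0.91 for BNIP3 with FUNDC2 and 0.88 for BNIP3L with FUNDC2. For the 2 FUNDC genes it was 0.37, and -0.24 without that library.

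A list of 10 known HIF targets gave a reference for the size of these changes. At 24 h, 5 of the 9 tested were called higher, namely PDK1 (3.60), PGK1 (2.80), LDHA (2.48), P4HA1 (2.13) and SLC2A1 (1.98, all log2 fold changes). At 48 h only PGK1 was called, at 1.99. The highest value then was 2.20 for NDRG1 (adjusted p = 0.178) and the lowest 0.63 for EGLN3 (adjusted p = 0.848). The 48 h values of this list include the second DMSO 48 h library. PDK1 measured 11.7, 50 and 14.2 CPM with DMSO and 92.8, 68.2 and 56.6 CPM with Molidustat at 48 h. The median log2 fold change of the 9 was 2.13 at 24 h and 1.64 at 48 h, against 0.02 and 0.01 over all tested genes, so that BNIP3 and BNIP3L lay above the median of this list at both times and FUNDC2 below it. VEGFA, at 1.0 ± 0.29 (SE, adjusted p = 0.348) at 24 h, was not called.

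The proteins that the receptors bind on the autophagosome were measured through 5 of 7 listed LC3 and GABARAP genes, since MAP1LC3A and MAP1LC3C had no count. None of the 5 was called at either time. All 5 log2 fold changes were positive at both times, with medians of 0.47 at 24 h and 0.34 at 48 h. MAP1LC3B was the largest at 24 h, at 1.29 ± 0.50 (SE, adjusted p = 0.806), and was 0.03 at 48 h. Its 24 h value rested on 1 library, since the 3 Molidustat libraries measured 93.6, 411.6 and 106.3 CPM against 101.5, 63.9 and 85.3 CPM with DMSO. GABARAP was 0.38 at 24 h and 0.78 at 48 h, GABARAPL2 was 0.48 and 0.74, GABARAPL1 was 0.47 and 0.25, and MAP1LC3B2 was 0.29 and 0.34. The 48 h values without the second DMSO 48 h library were 0.74 for GABARAP, 0.45 for GABARAPL2, 0.34 for GABARAPL1, 0.35 for MAP1LC3B and 0.77 for MAP1LC3B2, none of them called.

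The PINK1 and ubiquitin pathway was represented by 31 tested genes of 32 listed, and none was called at either time. The medians were -0.02 at 24 h and 0.04 at 48 h. The extremes were OPTN, the ubiquitin-binding adaptor, at 0.81 and 0.96, NBR1, an autophagy adaptor, at -0.61 at 24 h, and TOMM22, a receptor of the outer membrane import complex, at -1.67 at 48 h. TOMM22 measured 152.5, 1007 and 281.5 CPM in the 3 DMSO 48 h libraries and 161.1, 133.8 and 156.0 CPM in the Molidustat libraries, so that the second DMSO 48 h library set its mean. Without it the 48 h value was -0.54 (adjusted p = 0.892).

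Of 24 listed partners and regulators of the receptors, 22 were tested and none was called. The median was -0.09 at 24 h and -0.10 at 48 h. PGAM5, the phosphatase that activates FUNDC1, was lowest at 24 h (-0.75, adjusted p = 0.999). CSNK2A2, a catalytic subunit of the casein kinase that phosphorylates FUNDC1, was lowest at 48 h (-2.12, adjusted p = 0.186), again with the second DMSO 48 h library apart at 778.2 CPM beside 116.2 and 127.1 CPM, and the value without it was -0.66 (adjusted p = 0.625). The highest values were 0.41 for PPTC7, a mitochondrial phosphatase that restrains BNIP3 and BNIP3L protein, at 24 h, and 0.82 for the tyrosine kinase SRC at 48 h, which was 0.37 without that library.

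All 25 listed genes of autophagosome formation were tested and none was called, with medians of -0.07 at 24 h and 0.02 at 48 h. PIK3C3, the class III lipid kinase VPS34, was highest at both times, at 1.5 ± 0.63 (SE, adjusted p = 0.872) and 1.27 ± 0.63 (SE, adjusted p = 0.404). Its DMSO 48 h libraries measured 10.6, 1.06 and 10.3 CPM, and the 48 h value without the second was 0.89 (adjusted p = 0.876). ATG4C, a protease that processes LC3-type proteins, was lowest at 24 h (-0.96) and ATG12, part of the conjugate that lipidates LC3, at 48 h (-1.93, adjusted p = 0.233). ATG12 measured 71.7, 645.2 and 75.6 CPM with DMSO at 48 h and 101.6, 47.6 and 55.2 CPM with Molidustat, and its value without the second DMSO 48 h library was -0.12. Among transcription factors of autophagy genes, 7 of 8 were tested and none called. PPARGC1A was highest at 24 h (3.37 ± 1.73, SE), TFEB at 48 h (1.77 ± 2.13, SE), and NFE2L2 was lowest at both times (-0.27 and -0.37). The first 2 values rest on very few counts. PPARGC1A measured 0, 0.385 and 0 CPM with DMSO and 0, 1.82 and 1.73 CPM with Molidustat at 24 h. TFEB measured 0, 0 and 0.62 CPM with DMSO and 2.92, 0 and 0 CPM with Molidustat at 48 h. BNIP1, BNIP2 and BNIPL, which share only part of the name with BNIP3, had medians of -0.30 and -0.50 and no call.

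The genes next to each of the genes described here on the chromosome were not called at either time. PPP2R2D, 7850 bases from BNIP3, was -0.42 at 24 h and 0.12 at 48 h, and PPP2R2A and DPYSL2 on either side of BNIP3L were -0.13 and 0.82 at 24 h and -1.01 and -1.53 at 48 h. MPP1, the nearest tested protein-coding gene before FUNDC2 at a distance of 204973 bases, was 2.18 and 1.64 at a mean of 2.94 CPM (adjusted p = 0.999 and 0.644).

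Markers of the labelled cell type were checked in the same libraries. All 9 hepatocyte markers were tested and present, with AFP the most abundant at 3908 to 10323 CPM and ALB at 1264 to 5157 CPM. Their summed level was 12038, 12860 and 15075 CPM in DMSO 24 h, 17674, 17200 and 22030 CPM in Molidustat 24 h, 16269, 8594 and 15865 CPM in DMSO 48 h and 24123, 22450 and 26769 CPM in Molidustat 48 h. The sum was thus above the controls in every treated library, as BNIP3, BNIP3L and FUNDC2 were, and its part in their rise was not tested. None of the 9 was called at either time. TF, which encodes transferrin, was called over the mean of both times (log2 fold change 1.39, adjusted p = 0.0337), the comparison in which FUNDC2 was called. At 48 h, 5 of the 9 were above the controls in every treated library, against 9.96% of all tested genes, and 5 had an unadjusted p below 0.05 with a positive log2 fold change, beside 1, HNF4A, with a negative one (-1.88). HNF4A measured 70.5, 1237 and 209.3 CPM with DMSO at 48 h and 155.7, 145.4 and 108.2 CPM with Molidustat, and its value without the second DMSO 48 h library was -0.05. With that library left out, TF was called at 48 h (1.11, adjusted p = 0.0351). Of 8 markers of other cell types, CD3E and ACTA2 were at 0 in all 12 libraries and PTPRC in 10, and 3 were tested. LYZ was the most abundant of these, at 42.9 to 231.7 CPM. The sum of the 8 was 232.4, 160.6 and 185.3 CPM in DMSO 24 h, 171.7, 148.8 and 155.9 CPM in Molidustat 24 h, 105.6, 133.1 and 143.4 CPM in DMSO 48 h and 56.8, 47.6 and 77.6 CPM in Molidustat 48 h. The 3 Molidustat libraries were thus below the DMSO libraries in this sum at 48 h, as they were in LYZ, which makes up most of it. COL1A2 went the other way, at 0.689, 0.385 and 0.207 CPM with DMSO and 2.15, 1.58 and 2.88 CPM with Molidustat at 24 h, and 1.63, 2.13 and 3.41 CPM and 6.07, 3.86 and 5.26 CPM at 48 h. The part of these markers in the results for the genes described here was not tested.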

How the data were processed

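Three-prime RNA libraries (QIAseq UPX 3′ kit) of 12 Huh7 cultures were sequenced in pairs of reads. The authors mapped them to GRCh38 with STAR 2.7.9a and deposited HTSeq 0.11.2 read counts per gene, in raw counts. The submitters' processing notes also name bcl2fastq 2.17.1.14, cutadapt 1.9.1 and DESeq2 1.26.0. The annotation release, the strand setting and any use of molecular identifiers are not given in the sources used here. The 5 summary lines of each table were left out of library totals. Gene names came from GENCODE release 44, which matched 60437 of 60666 identifiers.

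Counts were scaled by TMM and fitted with edgeR 4.0.16 (R 4.3.3, quasi-likelihood test, filterByExpr with a minimum count of 10 and a minimum total of 15) over 4 groups in 1 fit, without a replicate block. Intervals are 95% and cover the spread between libraries. DESeq2 1.42.0, limma 3.58.1 (voom with quality weights), other scalings, filters and subsets of libraries, thinning and a replicate block were alternatives. On simulated data the fit made few false calls but left most of the changed genes uncalled, and the recovery asked of it was lowered after that was seen, so a gene that was not called may still have changed. Same-numbered libraries correlated over 0.1 in 2 of 18 pairs (-0.09 to 0.14). Differently numbered libraries were not compared in this way, so whether the numbers pair the cultures is not settled. The members and the gene lists were chosen with earlier results of these data known. Named list genes are the LC3 and GABARAP genes, every called gene of a list, and the highest and lowest of each list at each time, and the 5 genes most like BNIP3, BNIP3L and FUNDC2. Some items that this rule names are not reported here.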

Additional observations from a re-analysis of the deposited data

How the results depend on the processing

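BNIP3 was called at both times without any single library, and under every other setting run except the fit of only the 48 h groups (adjusted p = 0.0569). That fit called 0 of the 8 genes against 2, and 7 genes higher over all against 30. BNIP3L was also lost there (2.34, adjusted p = 0.212), and without 1 library in 1 of 12 cases at 24 h and 3 of 12 at 48 h. The number of the 8 genes called higher was 1 to 3 at 24 h when 1 library was left out, with 1 without the second DMSO 24 h library (20 higher over all genes) and 3 without the second DMSO 48 h library (111 over all genes). At 48 h it was 1 to 2, with 1 without each Molidustat 48 h library (17, 14 and 13 higher over all genes). Over the mean of both times 3 were called in every setting run. FUNDC2 passed at 24 h with DESeq2, with DESeq2 without the second DMSO 48 h library, and with edgeR without that library (adjusted p = 0.0208). It passed at 48 h with DESeq2, with and without that library, with limma-voom and with no filter on low counts. Of the listed pathway genes at 48 h, limma-voom called 2 higher (OPTN and HEY1; 244 over all genes) and the fit with no filter called 3 lower (CSNK2A2, TOMM22 and ATG12; 610 of 28430 over all genes). Leaving out 1 library gave 0 to 3 lower, the same 3 genes without the first DMSO 48 h library (272 over all genes) and CSNK2A2 without the third (152), where the second DMSO 48 h library weighs more. These genes were named after their values were seen. Over all genes, calls at 24 h rose from 33 higher to 133 higher and 12 lower with DESeq2, and calls at 48 h from 30 higher and 3 lower to 174 and 176. Scaling by total counts moved the median log2 fold change of all genes at 48 h from 0.01 to 0.13.

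Over the 8 genes and 6 comparisons, 86 of 1034 recomputed log2 values changed sign, none of them with an adjusted p below 0.05 and none from a value larger than 0.25 in size. Of the values given in the report, FUNDC1 at 24 h (-0.01) became 0.00 with DESeq2, with RLE factors and with only the 24 h groups, 0.01 with no filter and 0.11 after thinning, and ranged from -0.19 to 0.16 when 1 library was left out. FUNDC1 at 48 h became -0.14 with limma-voom and -0.24 with DESeq2 without the second DMSO 48 h library, and ranged from -0.29 to 0.35. With total counts FKBP8 at 24 h became -0.03, BCL2L13 at 48 h 0.01 and the time difference of the BNIP3 effect 0.05. That of FUNDC2 became -0.02 with limma-voom and also with DESeq2 without the second DMSO 48 h library. FKBP8 in DMSO between times became -0.00 after thinning. When 1 library was left out, values at 24 h ranged from -0.27 to 0.01 for BCL2L13, -0.21 to 0.29 for FKBP8 and -0.46 to 0.04 for PHB2, and at 48 h from -0.37 to 0.02 for BCL2L13, -0.04 to 0.38 for PHB2 and -0.60 to 0.02 for PINK1. The time difference of the effect ranged from -0.32 to 0.10 for BNIP3 and -0.08 to 0.36 for FUNDC2. Between times in DMSO, BNIP3 ranged from -0.07 to 0.34 and FKBP8 from -0.12 to 0.47, and BNIP3 in Molidustat from -0.06 to 0.11. The exact permutation p without the second DMSO 48 h library was 0.45 for FUNDC1 and 0.545 for PHB2.

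With the replicate number as a block, BNIP3 was 2.81 at 24 h and 2.68 at 48 h, BNIP3L was 2.72 and 2.45, and the same 2 genes were called at each time. FUNDC1 at 24 h became 0.05 and FKBP8 at 24 h -0.03 under the block. Calls over all genes were 30 higher at 24 h and 22 higher at 48 h. The 3 libraries per group and, in the second DMSO 48 h library, 9 to 144 counts on each of the 8 genes limit what could be detected.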
